A study of Mus musculus with 15 samples.

Results

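The 35 genes described here mark the myeloid cells of brain tumours and were taken from a fixed list of symbols, 35 of 54232 genes in the deposited tables, with every symbol matched to an Ensembl gene. By role they fall into 7 genes of resident microglia, 13 genes shared by microglia and macrophages, 11 genes of recruited or activated macrophages and 4 genes of neutrophils. RNA was sequenced from 15 libraries of mouse tumours that grew in the frontal cortex. Every mouse was on a C57BL/6 background with the avian virus receptor Tv-a driven by Nestin, which opens progenitor cells of the brain to RCAS viruses, and with floxed p53. Chicken DF-1 cells delivered RCAS viruses for Cre, for the growth factor PDGFA and for a GFP-tagged histone H3.3, so Cre, PDGFA and floxed p53 are common to all groups. The groups differed in Atrx, which encodes a chromatin remodeller, and in the histone. ATRXfl_G34R (n = 4) had floxed Atrx and H3.3G34R, and ATRXfl_WT (n = 4) had floxed Atrx and H3.3WT. Atrx was intact in p53_G34R (n = 3) with H3.3G34R and in p53_WT (n = 4) with H3.3WT. No age is given, tumours were taken when the animals reached a functional end point, and the DF-1 cells were not removed by any step the labels name. RCAS viruses enter cells that carry Tv-a.

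Microglia are the resident macrophages of the brain and are told apart from blood-derived macrophages by purinergic receptors, Tmem119 and the transcription factor Sall1. Monocytes that enter a tumour become macrophages that share the complement, Fc receptor and lysosomal genes of microglia and can express scavenger receptors such as Mrc1 and Msr1. Neutrophils are short-lived granulocytes that carry the calprotectin subunits S100a8 and S100a9, the chemokine receptor Cxcr2 and, in the mouse, Ly6g.

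PU.1 is a transcription factor needed by the myeloid lineage, and its core motif is shown here in the upstream sequences of 3 members. C1qb and Fcgr1 are shown as shared members that moved together, and Mrc1 as the member with the largest share of its variance between the groups. Each is the 250 bases before the transcription start in RefSeq (GRCm38.p6), written 5′ to 3′ on the strand of the gene. The capitals mark AGGAAGT or its reverse complement.
C1qb: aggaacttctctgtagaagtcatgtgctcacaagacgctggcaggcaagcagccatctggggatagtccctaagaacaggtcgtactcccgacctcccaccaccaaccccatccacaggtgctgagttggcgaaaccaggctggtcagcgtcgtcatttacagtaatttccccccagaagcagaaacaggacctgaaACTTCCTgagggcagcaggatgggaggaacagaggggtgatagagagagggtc
Fcgr1: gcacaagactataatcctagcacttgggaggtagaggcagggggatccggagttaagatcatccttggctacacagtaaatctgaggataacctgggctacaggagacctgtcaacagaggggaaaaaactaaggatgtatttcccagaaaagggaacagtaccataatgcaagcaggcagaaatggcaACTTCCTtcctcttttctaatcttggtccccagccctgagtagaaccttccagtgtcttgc
Mrc1: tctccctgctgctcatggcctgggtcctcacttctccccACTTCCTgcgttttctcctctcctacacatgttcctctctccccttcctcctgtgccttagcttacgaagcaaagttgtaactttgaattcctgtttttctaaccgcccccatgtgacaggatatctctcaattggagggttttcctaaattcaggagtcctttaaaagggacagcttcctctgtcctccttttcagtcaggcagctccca
They lie at chr4:136886201-136886450 on the minus strand, chr3:96293970-96294219 on the minus strand and chr2:14229164-14229413 on the plus strand. The motif begins 53 bases before the start in C1qb, 61 in Fcgr1 and 211 in Mrc1. Searched on both strands from 250 bases before to 50 bases after the start, AGGAAGT was present for 12 of the 28 members with a promoter in the table and for 10.68% of 27025 genes. The 12 were C1qb, C1qc, Fcgr1, Ly6c2, Ly6g, Lyz2, Mrc1, P2ry12, Ptprc, S100a8, Sall1 and Spp1, from all 4 roles. The composite site of PU.1 with IRF factors, GGAANTGAA, was present for 1 of 28 members, Cd68, against 2.72% of genes. The C/EBP core TTGCNNAA was present for 7 of 28, against 12.2%. A match describes letters in this window and shows neither binding nor a cause.

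Libraries held 22807315 to 35679129 reads in genes, and the 35 members took 0.282% to 1.40% of them. Values are normalized counts, which are the authors' size-factor-normalized reads rescaled over all 15 libraries, and a pair of groups was tested on the scale of its own deposited table. Whether the libraries of a group were made from different mice is not stated, and p-values therefore measure the spread between libraries. Titles share their first code, whose meaning is not given, in ATRXfl_G34R replicates 1 and 4, p53_G34R replicates 2 and 3, and p53_WT replicates 3 and 4, which leaves p53_G34R with 2 codes. With such libraries counted as 1, limma again called 0 members in the 8 comparisons. Atrx itself stood at 1346 to 3031 and 1931 to 3124 in the floxed groups and at 5235 to 7944 and 5143 to 8540.0 in the intact groups, without overlap. In bulk RNA, fewer cells of a type and less RNA per cell cannot be told apart. Single libraries stood apart in other cell types. Neuron markers (7 of 7 detected in every library) summed to 1979.8 to 9973 (ATRXfl_G34R), 845 to 1495 (ATRXfl_WT), 1162 to 3193 (p53_G34R) and 515 to 151000.4 (p53_WT), with the highest value in p53_WT replicate 3, where oligodendrocyte progenitor markers were lowest. Endothelial, mural and erythroid markers were highest in ATRXfl_WT replicate 1, hypoxia markers in p53_G34R replicate 1 and B and plasma cell markers in ATRXfl_G34R replicate 4. Of the markers in these lists, the B cell gene Ms4a1 had 0 reads in 2 of the 15 libraries. The part of any of these in the member values was not tested.

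Gene by gene, no member passed limma over all genes at an adjusted p under 0.05 in any of 8 comparisons, with 34 of 35 members tested, since Ly6g stayed under the mean of 10 normalized counts required. For the histone with Atrx floxed (H3.3G34R against H3.3WT), limma called 0% of 17521 genes, and 1 member (2.79% of all genes) had an unadjusted p under 0.05. With Atrx intact, 0% of 17873 genes were called, and 0 members (1.47% of all genes) had an unadjusted p under 0.05. Between floxed and intact Atrx with H3.3G34R, 0.0229% of genes were called, and 4 members, 11.8% of those tested, had an unadjusted p under 0.05, against 3.39% of all genes. The same contrast with H3.3WT called 0.0335% of genes and had 1 member at that p (3.76% of all genes). Between both changes and neither, 0.0227% of genes were called, with 1 member at an unadjusted p under 0.05 (4.37% of all genes). The interaction of Atrx and histone called 0% and had 1 such member (2.05%). Over both histones, the Atrx contrast called 0.107% and had 1 such member (5.48%), and over both Atrx states the histone contrast called 0% and had 0 (2.37%). Apart from Atrx with H3.3G34R, these counts are 0 or 1 of 34, and none of the counts is read as a result about the members. For Atrx with H3.3G34R the 4 became 2 with all 4 groups in 1 fit and 2 without p53_G34R replicate 2. It was 3 with no filter and 6 without p53_G34R replicate 3. Groups did not overlap for Mrc1 and Msr1 in that comparison (4.64% of all genes) and for 0 members in the other 4 pairs of groups (2.16%, 2.61%, 2.65% and 2.94% of all genes). EdgeR's quasi-likelihood test also called 0 members in the 8 comparisons. DESeq2 called 1 member in each of 3 comparisons, Msr1 for Atrx with H3.3G34R (0.339% of genes there), Mrc1 for both changes against neither (0.227%) and Mrc1 for Atrx over both histones (0.286%). In the authors' deposited tables, 2 members pass, Msr1 in the first of these comparisons (0.538% of genes there) and Mrc1 in the second (0.38%), and 0 members pass for Atrx with H3.3WT (0.352%) or for the histone with Atrx floxed (0.182%) or intact (0.0578%). Members without an adjusted p there could not pass. These were Itgam, Mrc1, Arg1 and Apoe for the histone with Atrx floxed, and Trem2, Spp1 and Apoe for Atrx with H3.3WT. Spp1 had none for the histone with Atrx intact, Itgam and Spp1 none for both changes against neither, and Ly6g none in any table. Positive log2 changes numbered 17 of 34 for the histone with Atrx floxed (49.9% of all genes), 15 with Atrx intact (50%), 19 for Atrx with H3.3G34R (50%), 20 with H3.3WT (49.5%), 18 for both changes against neither (49.2%), 19 for the interaction (49%), 18 for Atrx over both histones (49.7%) and 17 for the histone over both Atrx states (49.2%). The comparisons share groups, so their values are given side by side and not as repeats of each other.

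**Figure D1:**
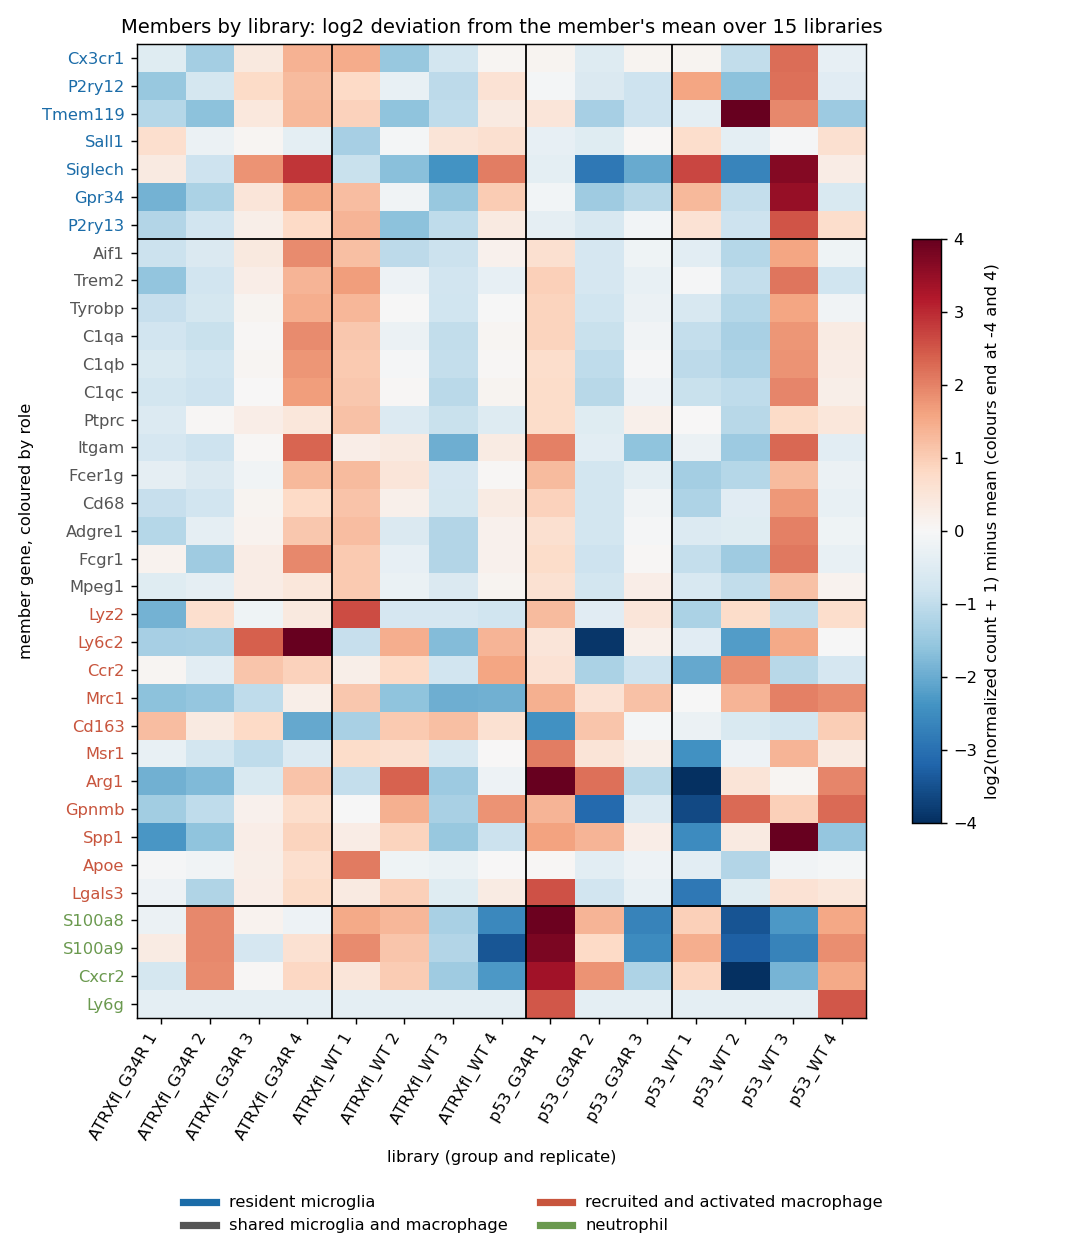
Log2(normalized count + 1) of the 35 members (rows, named in the colour of their role) as deviations from the mean of each member over 15 libraries (columns, by group and replicate). The shared members mostly have 1 colour within a library, red in p53_WT replicate 3 (mean deviation 1.70) and in ATRXfl_G34R replicate 4 (1.42), on a scale that ends at -4 and 4. Cd163 runs the other way, and Mrc1 is blue in 6 of 8 Atrx-floxed libraries.

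The 13 shared members followed each other from library to library and not the groups. Over 15 libraries the Pearson r of their log2 values had a median of 0.89 over 78 pairs (0.61 to 0.99), a description that shares libraries and scaling between pairs. The corresponding median was 0.48 over 21 pairs of resident microglia members, 0.28 over 55 pairs of recruited members and 0.95 over 3 pairs of neutrophil members. Of the variance of C1qa, a chain of the complement protein C1q, 0.245% lay between the groups. C1qa, chosen after its values were seen, stood at 3176, 2940.0, 5631 and 20065 in ATRXfl_G34R, 11416, 4611, 2732 and 5750.2 in ATRXfl_WT, 10065, 2909 and 4909 in p53_G34R and 2801, 2197, 18544 and 6726 in p53_WT. The 4 groups overlapped, each with its highest library more than 3 times its lowest. Its log2 difference was 0.07 (95% interval -1.02 to 1.17) for floxed against intact Atrx and 0.04 (-1.05 to 1.14) for H3.3G34R against H3.3WT by limma.

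Among the shared members the smallest p-values belonged to Fcer1g, Cd68 and Itgam, and each was above 0.3. Fcer1g, the common signalling chain of Fc receptors, stood at 659, 563, 763 and 2083 in ATRXfl_G34R, 2059, 1189, 531 and 881 in ATRXfl_WT, 2022, 515 and 652 in p53_G34R and 332, 381, 2037 and 726 in p53_WT. Its groups overlapped, and the log2 change was 0.65 (SE 0.61) for floxed against intact Atrx with H3.3WT (unadjusted p = 0.319, limma adjusted p = 0.975). The lysosomal glycoprotein gene Cd68 stood at 737, 834, 1509.7 and 2467 in ATRXfl_G34R, 3091, 1622, 857 and 1746 in ATRXfl_WT, 2689.5, 849 and 1262 in p53_G34R and 599, 1030.1, 4630.2 and 1154 in p53_WT. p53_WT replicate 3 was highest and p53_WT replicate 1 lowest, and the change of -0.42 (SE 0.46) for the histone with Atrx floxed lay within that spread (unadjusted p = 0.381, limma adjusted p = 1). Itgam, the CD11b integrin chain, stood at 212, 191, 351 and 1706 in ATRXfl_G34R, 408, 437, 88 and 427 in ATRXfl_WT, 1378, 254 and 111 in p53_G34R and 293, 124, 1666 and 255 in p53_WT. ATRXfl_WT replicate 3 was the lowest library of the 15, and the change of 0.47 (SE 0.76) between the histones with Atrx floxed was smaller than its error allows to call (unadjusted p = 0.552, limma adjusted p = 1).

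The other 10 shared members were the macrophage genes Aif1, Adgre1 and Mpeg1, the receptor Trem2 and its adaptor Tyrobp, the C1q chains C1qa, C1qb and C1qc, the leukocyte phosphatase Ptprc and the Fc receptor Fcgr1. Their log2 changes ran from -0.28 to 0.39 in the 5 comparisons of pairs of groups. Positive changes numbered 7 of 13 shared members for the histone with Atrx floxed (median 0.01), 6 with Atrx intact, 7 for Atrx with H3.3G34R (median 0.04), 8 with H3.3WT (median 0.02) and 9 for both against neither (median 0.08). These counts rest on single libraries. Without p53_WT replicate 3, 13 of 13 were positive for the histone with Atrx intact (median 0.59), and without p53_G34R replicate 1, 0 of 13 (median -0.43). For Atrx with H3.3G34R, 0 of 13 were positive without ATRXfl_G34R replicate 4 (median -0.41) and 13 of 13 without p53_G34R replicate 1 (median 0.58). p53_WT replicate 3 was the highest library for 8 of the 13 and ATRXfl_G34R replicate 4 for 4, and p53_WT replicate 2 was the lowest for 7.

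**Figure D2:**
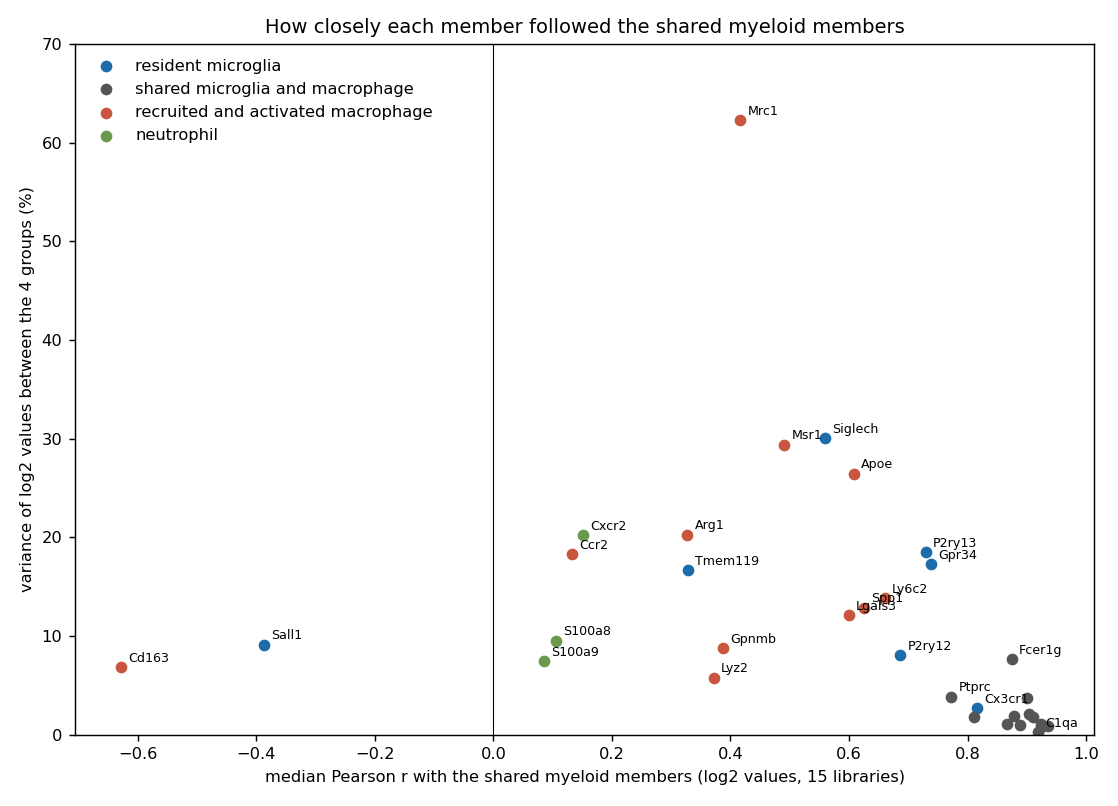
Each of 34 members by the median Pearson r of its log2 values with the shared members over 15 libraries (x axis) and by the share of its variance that lies between the 4 groups (y axis, percent), coloured by role. The shared members gather at high r and low shares, Mrc1 stands alone at 62.3%, and Sall1 and Cd163 have a negative r.

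Resident microglia members were all lower with H3.3G34R than with H3.3WT where Atrx was intact, by values that did not pass the test. All 7 had negative log2 changes there (median -1.12, where 50% of all genes were positive), from -0.36 for Cx3cr1, the fractalkine receptor, to -2.76 for Siglech. Between floxed and intact Atrx with H3.3WT, 7 of 7 were again negative (median -0.66), and both comparisons are made against the same p53_WT libraries. Between floxed and intact Atrx with H3.3G34R, 7 of 7 were positive (median 0.29). In p53_WT replicate 3, the library with the most neuron RNA, 5 of the 7 members had their highest value. Without it the histone contrast with Atrx intact had 6 of 7 negative (median -0.57), and the Atrx contrast with H3.3WT had 4 of 7 (median -0.40). Without ATRXfl_G34R replicate 3, which is also rich in oligodendrocyte RNA, the Atrx contrast with H3.3G34R had 5 of 7 positive (median 0.17). ATRXfl_G34R replicate 4 stood higher still, with a mean log2 deviation of 1.25 over the 7 members against 0.60 in replicate 3. It was among the 3 highest libraries for 6 of the 7, so this contrast leans on that library too. Markers of cortex had the same signs in part. For the histone with Atrx intact, 7 of 7 neuron (median -2.44), 5 of 5 oligodendrocyte (-1.63) and 5 of 5 astrocyte markers (-0.93) were negative, and for Atrx with H3.3G34R the same 3 lists were all positive (medians 1.43, 1.93 and 0.98). For Atrx with H3.3WT, 7 of 7 neuron (-3.10), 4 of 5 oligodendrocyte (-0.86) and 4 of 5 astrocyte markers (-0.15) were negative. Markers of other cells had these signs in part or not at all. Erythroid markers had 0 of 3 positive for the histone with Atrx intact (-1.42) and 3 of 3 for Atrx with H3.3G34R (3.58). For Atrx with H3.3WT, 3 of 3 erythroid markers were positive (1.01), opposite to the resident members. Oligodendrocyte progenitor markers went the other way in each of the 3 comparisons, with 4 of 4, 0 of 4 and 4 of 4 positive. Their part in the microglia values was not tested.

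Siglech, a lectin receptor gene of microglia and of plasmacytoid dendritic cells, had the smallest p-value of the resident members. Siglech (ENSMUSG00000051504, mm10 chr7:55768178-55778925, plus strand) stood at 40.8, 17.3, 113 and 236 in ATRXfl_G34R, 16.6, 9.35, 5.23 and 133 in ATRXfl_WT, 23.9, 3.46 and 7.10 in p53_G34R and 207, 4.25, 416 and 39.4 in p53_WT. With H3.3G34R, 3 of 4 floxed libraries were above the 3 intact ones and replicate 2 was not, and with H3.3WT the floxed libraries lay within the range of the intact ones. The log2 change was 2.80 (SE 0.96) for floxed against intact Atrx with H3.3G34R (unadjusted p = 0.0184, limma adjusted p = 1) and -1.74 (SE 1.43) with H3.3WT (unadjusted p = 0.256, limma adjusted p = 0.975). The difference of these effects was 4.53 (SE 1.92) (unadjusted p = 0.0329, limma adjusted p = 1), and it did not pass over all genes. Of 15 fits that each leave out 1 library, 7 had an interaction p under 0.05, and the interaction ran from 3.64 (without p53_WT replicate 3) to 5.75 on the log2 scale.

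Gpr34, a lysophospholipid receptor gene, stood at 16.5, 26.4, 90.8 and 186 in ATRXfl_G34R, 152, 58.4, 21.8 and 133 in ATRXfl_WT, 59.2, 23.4 and 29.3 in p53_G34R and 159, 33, 730.0 and 41.5 in p53_WT. p53_WT replicate 3 held 730.0, and the other libraries at most 186. The log2 change for the histone with Atrx intact was -1.69 (SE 1.06) (unadjusted p = 0.151, limma adjusted p = 1). P2ry13, an ADP receptor gene, stood at 91.3, 123, 247 and 361 in ATRXfl_G34R, 533, 66.6, 102 and 266 in ATRXfl_WT, 162, 135 and 193 in p53_G34R and 316, 118, 1210.3 and 338 in p53_WT, again highest in p53_WT replicate 3 with overlapping groups. Its change in that contrast was -1.12 (SE 0.71) (unadjusted p = 0.157, limma adjusted p = 1). Of the members given here by their range, chosen after their values were seen, P2ry12, the ADP receptor that directs microglial processes, ran from 59.5 to 863 and Cx3cr1 from 546 to 7392 normalized counts over the 15 libraries.

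Tmem119 and Sall1, chosen after their values were seen, departed from the rest of the resident members. Tmem119, a membrane protein gene used to tell microglia from macrophages, stood at 424, 299.8, 1248 and 2305 in ATRXfl_G34R, 1775, 304, 463 and 1213 in ATRXfl_WT, 1299, 371 and 531 in p53_G34R and 714, 15100.4, 3519.9 and 345 in p53_WT. p53_WT replicate 2 was the highest library at 15100.4 normalized counts and was also the lowest of all for P2ry12 (59.5), so markers of the same cell lay at opposite ends in this library. Sall1, a repressor that maintains microglial identity and that neural progenitors also make, ran from 975 to 4055 normalized counts over the 15 libraries. Its median r with the shared members was -0.39, and its lowest library, ATRXfl_WT replicate 1, was among the 3 highest for 12 of 13 shared members.

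**Figure D3:**
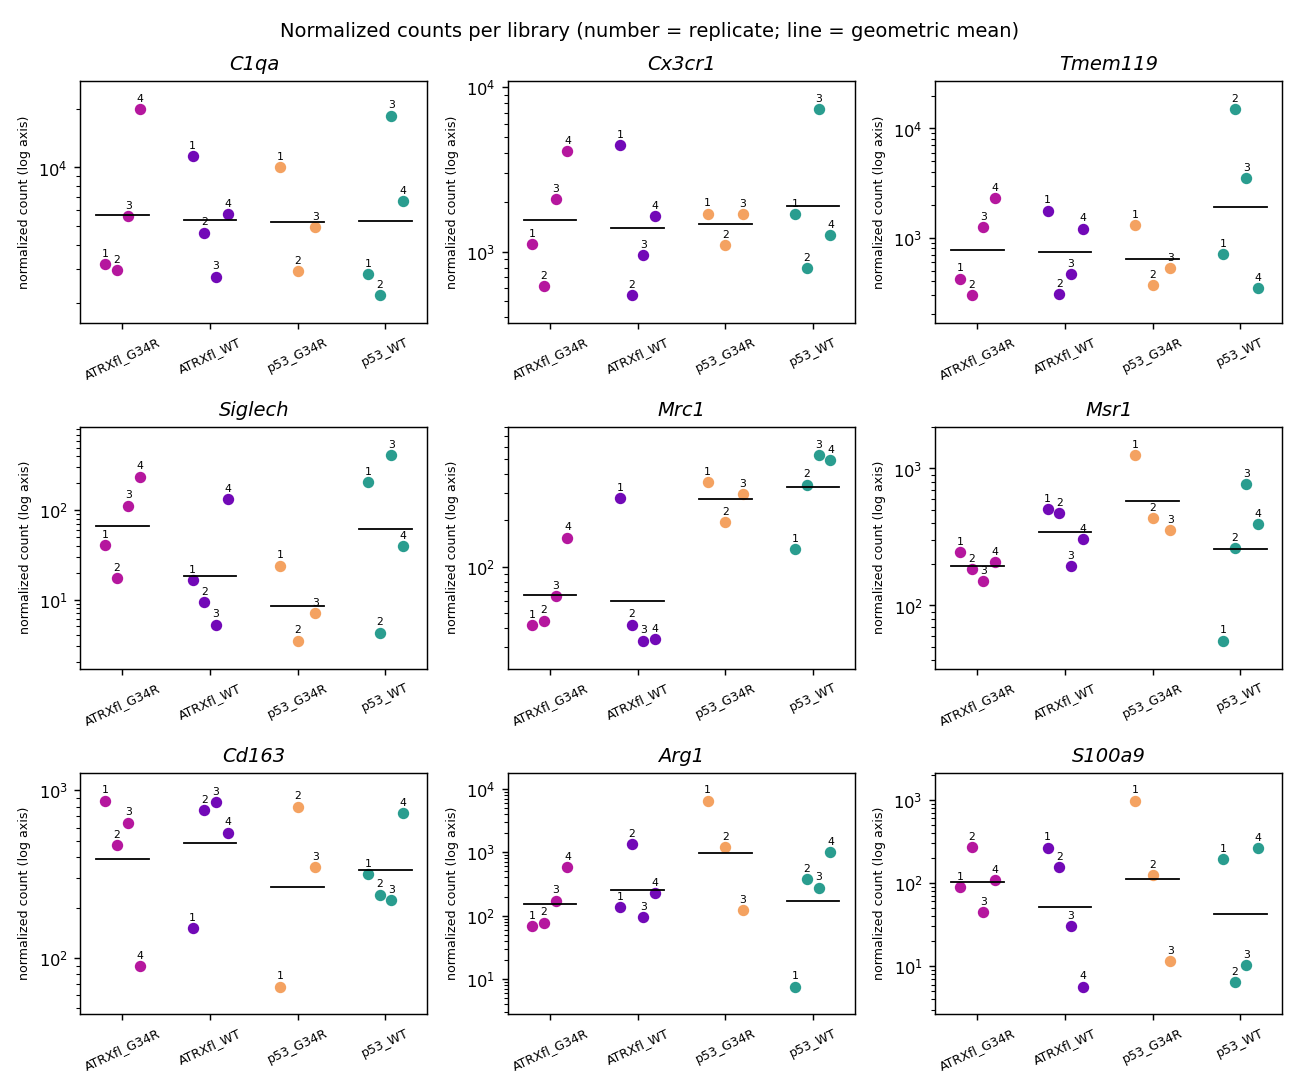
Normalized counts (log axes) of 9 members in each library, by group, with the replicate number beside each point and a line at the geometric mean of the group. C1qa spreads alike in the 4 groups, the 4 ATRXfl_G34R libraries lie below the 3 p53_G34R libraries for Mrc1 and Msr1, and S100a9 lies both below 12 and above 120 within 3 of the 4 groups.

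Mrc1, the mannose receptor gene of perivascular and alternatively activated macrophages, was lower in Atrx-floxed than in Atrx-intact tumours with either histone, and by limma over all genes the difference did not pass. Mrc1 (ENSMUSG00000026712, mm10 chr2:14229392-14332057, plus strand) stood at 41.8, 44.7, 64.2 and 154 in ATRXfl_G34R, 277, 42.1, 33.1 and 34.1 in ATRXfl_WT, 354, 195 and 296 in p53_G34R and 130.2, 340.2, 532 and 489.9 in p53_WT. With H3.3G34R the groups did not overlap, as for 4.64% of all genes tested there, and with H3.3WT ATRXfl_WT replicate 1 lay above p53_WT replicate 1. The log2 change was -2.05 (SE 0.51) with H3.3G34R (unadjusted p = 0.00344, limma adjusted p = 0.989) and -2.43 (SE 0.77) with H3.3WT (unadjusted p = 0.0113, limma adjusted p = 0.975). For both changes against neither it was -2.30 (SE 0.58) (unadjusted p = 0.00331, limma adjusted p = 0.927). Over both histones it was -2.25 (SE 0.48), with 7 of 8 floxed libraries under all but 1 of the 7 intact ones (unadjusted p = 0.000297, limma adjusted p = 0.151; DESeq2 adjusted p = 0.0283). Between the histones Mrc1 differed by 0.12 (SE 0.74) with Atrx floxed and -0.26 (SE 0.54) with Atrx intact. The difference of the Atrx effect between the histones was 0.38 (SE 1.0) by limma's interaction term (unadjusted p = 0.712, limma adjusted p = 1), with a 95% interval of -1.76 to 2.51 that includes large differences in either direction.

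Whether Mrc1 passed limma over both histones turned on 1 library, and with all 15 libraries it did not pass. Without ATRXfl_WT replicate 1, the floxed library with the most Mrc1 and with the highest endothelial and mural markers, the change was -2.59 and passed limma over all genes (adjusted p = 0.0144). Over the 15 fits that leave out 1 library, the change ran from -2.59 to -2.09, the adjusted p from 0.0144 to 0.345, and the unadjusted p was under 0.05 in 15 of 15. In the authors' deposited tables Mrc1 passes for both changes against neither (log2 -2.29, adjusted p = 0.0330) and does not for Atrx with H3.3G34R (-1.89, adjusted p = 0.0551) or with H3.3WT (-1.96, adjusted p = 0.426). Of 10 other genes of perivascular and meningeal (border) macrophages, 7 were tested over both histones, with 5 negative (median -0.09) and 0 at an unadjusted p under 0.05. Their summed level was 2027 to 4280.2 (ATRXfl_G34R), 1824 to 12908 (ATRXfl_WT), 2912 to 4376 (p53_G34R) and 1703 to 8337 (p53_WT), and the lectin genes Cd209f and Cd209d had 0 reads in 12 and in 13 libraries. Of the variance of Mrc1, 62.3% lay between the 4 groups, against 30.1% for Siglech, the next of the 34 members. Such a share lies above 0 even where groups do not differ. It was not computed over all genes and carries no test.

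Msr1, the class A scavenger receptor gene, was lower in ATRXfl_G34R than in p53_G34R, and the difference did not pass limma. Msr1 (ENSMUSG00000025044, mm10 chr8:39581685-39642673, minus strand) stood at 245, 184, 150.1 and 209 in ATRXfl_G34R, 504, 469.7, 194 and 306 in ATRXfl_WT, 1259.6, 434 and 356 in p53_G34R and 55.3, 262, 773 and 390.2 in p53_WT. With H3.3G34R the 4 floxed libraries lay below the 3 intact ones, while with H3.3WT the floxed libraries lay within the range of the intact ones. The log2 change was -1.58 (SE 0.44) with H3.3G34R (unadjusted p = 0.00688, limma adjusted p = 1) and 0.41 (SE 0.74) with H3.3WT (unadjusted p = 0.595, limma adjusted p = 0.977). The difference between these effects was -1.99 (SE 0.96) (unadjusted p = 0.0563, limma adjusted p = 1). In the authors' deposited table Msr1 passes for Atrx with H3.3G34R (log2 -1.79, adjusted p = 0.0417). p53_G34R replicate 1, the library with the most hypoxia marker RNA, held 1259.6 normalized counts of Msr1, and without it the limma change was -1.03 with all other 6 libraries in the fit. Hypoxia markers (5 of 5 matched genes detected) summed to 11838 to 34067 (ATRXfl_G34R), 12819.5 to 25619 (ATRXfl_WT), 18599 to 72877 (p53_G34R) and 5666 to 22260.0 (p53_WT), and their part in Msr1 was not tested. Between the histones with Atrx floxed, Msr1 differed by -0.82 (SE 0.36) (unadjusted p = 0.0485, limma adjusted p = 1).

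Spp1, the osteopontin gene of tumour-associated macrophages, stood at 253, 414, 1519 and 2369 in ATRXfl_G34R, 1559, 2342, 443 and 701 in ATRXfl_WT, 3848, 3289 and 1536 in p53_G34R and 221, 1615, 28456 and 433 in p53_WT. p53_WT replicate 3 held 28456 normalized counts against at most 3848 in any other library, and with H3.3G34R ATRXfl_G34R replicate 4 lay above p53_G34R replicate 3. The log2 change for Atrx with H3.3G34R was -1.78 (SE 0.76) (unadjusted p = 0.0464, limma adjusted p = 1). Arg1, the arginase gene of immunosuppressive macrophages, was chosen after its values were seen and stood at 69, 77.2, 173 and 579.9 in ATRXfl_G34R, 136, 1359.9, 95.8 and 226 in ATRXfl_WT, 6561, 1214 and 121 in p53_G34R and 7.59, 376, 278 and 1014 in p53_WT. It spanned 864-fold, from p53_WT replicate 1 to p53_G34R replicate 1, and its change for Atrx with H3.3G34R was -2.69 (SE 1.28) (unadjusted p = 0.0667, limma adjusted p = 1).

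**Figure D4:**
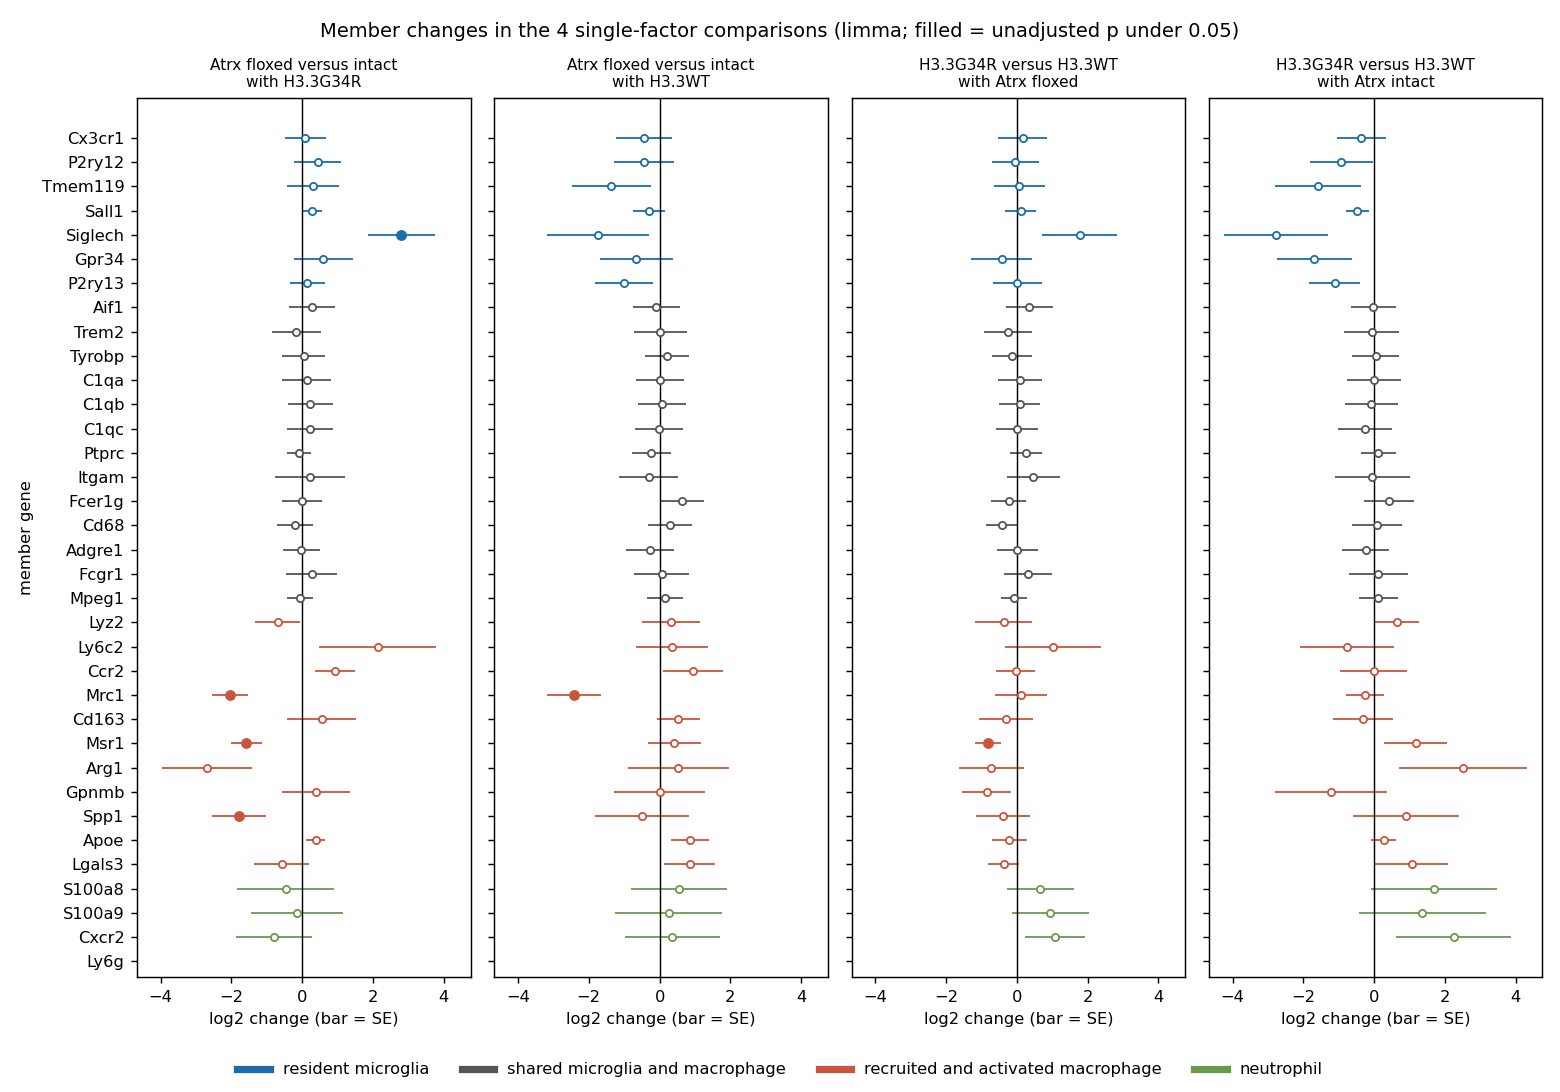
Log2 changes of 34 members (points, bars are the SE from limma) in 4 comparisons of pairs of groups, coloured by role and filled where the unadjusted p is under 0.05. Shared members sit near 0 in each panel, Mrc1 lies near -2 in both Atrx panels, and the resident members shift to negative values in the panels that use p53_WT.

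Cd163, the haemoglobin scavenger receptor gene, ran opposite to the shared members and was chosen after its values were seen. It stood at 871, 471, 643 and 89.2 in ATRXfl_G34R, 151, 766, 851 and 560.3 in ATRXfl_WT, 67.6, 801 and 349.6 in p53_G34R and 316, 239, 222 and 734 in p53_WT. The 3 lowest libraries, p53_G34R replicate 1, ATRXfl_G34R replicate 4 and ATRXfl_WT replicate 1, were among the 4 highest for C1qa, and the median r of Cd163 with the shared members was -0.63. Its log2 changes in the 5 pairs of groups ran from -0.32 to 0.55.

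The next 4 genes were also chosen after their values were seen. The lipid carrier gene Apoe, which astrocytes also make, and the lysozyme gene Lyz2 had their highest values in ATRXfl_WT replicate 1, with 283856 and 28561 normalized counts. In the other 14 libraries Apoe lay between 29955 and 107546 and Lyz2 between 1252 and 11278. Apoe had a log2 change of 0.64 (SE 0.32) for Atrx over both histones (unadjusted p = 0.0650, limma adjusted p = 0.914). Gpnmb, a glycoprotein gene of lipid-laden macrophages, spanned 181 in p53_WT replicate 1 to 10741 in p53_WT replicate 2, within a single group. Lgals3, the galectin-3 gene, was highest in p53_G34R replicate 1 (5718) and lowest in p53_WT replicate 1 (134.5). That last library was lowest for 6 of the 11 recruited members.

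The monocyte genes Ccr2 and Ly6c2, chosen after their values were seen, did not separate the groups. Ccr2, the receptor for Ccl2, ran from 28.2 to 440.1 normalized counts, with a log2 change of 0.94 (SE 0.54) for Atrx over both histones (unadjusted p = 0.0994, limma adjusted p = 0.928). Ly6c2 ran from 0 in p53_G34R replicate 2 to 326 in ATRXfl_G34R replicate 4, where B and plasma cell markers summed to 6337, against 30.3 to 2068 in the other libraries. Ly6c2 and Ly6g belong to a family of near-identical neighbouring genes, so some of their reads may not have been assigned to 1 gene and their values are uncertain.

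Neutrophil genes varied widely within groups and did not separate them. S100a8 stood at 28.2, 130.1, 36.5 and 28.9 in ATRXfl_G34R, 97.8, 85.3, 13.1 and 4.73 in ATRXfl_WT, 525, 86.5 and 4.44 in p53_G34R and 66.2, 2.13, 5.98 and 99.6 in p53_WT. S100a9 stood at 89.4, 269, 44.4 and 107 in ATRXfl_G34R, 265, 155, 30.5 and 5.68 in ATRXfl_WT, 978, 125 and 11.5 in p53_G34R and 194, 6.38, 10.3 and 259 in p53_WT. p53_G34R replicate 1 was highest and p53_WT replicate 2 lowest or among the lowest for both, and 3 of the 4 groups held values below 12 and above 120 for S100a9. The chemokine receptor gene Cxcr2 stood at 10.7, 69.1, 18.8 and 32.6 in ATRXfl_G34R, 25.4, 37.4, 6.10 and 2.84 in ATRXfl_WT, 193, 65.7 and 7.10 in p53_G34R and 33.6, 0, 4.27 and 54 in p53_WT, again highest in p53_G34R replicate 1. Ly6g, the defining surface marker of mouse neutrophils, had 12 reads in all, in p53_G34R replicate 1 (6.24 normalized counts) and p53_WT replicate 4 (6.23), and 0 in the other 13 libraries. Of 18 other neutrophil genes, 17 were detected in at least 1 library. Of the granule genes among them, Mpo was detected in 12 libraries, Camp in 11, Ltf in 10 and Ngp in 10, while Elane had 0 reads in all 15. The calprotectin genes, which monocytes also express, were detected in every library, and which cells they came from was not tested.

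Between H3.3G34R and H3.3WT over both Atrx states, 3 of the 3 tested neutrophil members had positive log2 changes. They were 1.61 (SE 0.91) for Cxcr2 (unadjusted p = 0.0981, limma adjusted p = 0.999), 1.13 (SE 1.02) for S100a8 (unadjusted p = 0.283, limma adjusted p = 0.999) and 1.13 (SE 1.06) for S100a9 (unadjusted p = 0.304, limma adjusted p = 0.999). The 3 genes moved as 1 unit from library to library, so they are not 3 independent observations. With Atrx intact the median was 1.69 and was 0.16 without p53_G34R replicate 1. With Atrx floxed the median was 0.95 and was -0.06 without ATRXfl_WT replicate 4.

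Of 8 pairs of genes tested over the 15 libraries by permutation, 1 passed, S100a8 with S100a9 (Pearson r = 0.975, Spearman rho = 0.954, permutation p = 1e-05 for each, the smallest that 100000 permutations can give, adjusted p = 8e-05). Without the 2 libraries farthest from the median r was 0.963, and within groups, as deviations from the group means, it was 0.977. Tmem119 with P2ry12 had r = 0.256 and rho = 0.396 (permutation adjusted p = 0.482 and 0.323). Without the 2 farthest libraries, p53_WT replicates 2 and 3, r was 0.729 (permutation adjusted p = 0.0237), without p53_WT replicate 2 alone it was 0.809, and without p53_WT replicate 3 alone 0.0980, so the relation depends on both libraries. Tmem119 with Ccr2 had r = 0.488 (rho = 0.350, permutation adjusted p = 0.256 and 0.323), and Ccr2 with Ly6c2 r = 0.357 (rho = 0.307, adjusted p = 0.348 and 0.355). Gpnmb with Spp1 had r = 0.339 (rho = 0.368, adjusted p = 0.348 and 0.323). Arg1 with the hypoxia gene Adm had r = 0.443 (rho = 0.132, adjusted p = 0.276 and 0.733), and r was -0.0910 without p53_G34R replicate 1 and p53_WT replicate 1. Apoe with the astrocyte gene Aldh1l1 had r = 0.107 (rho = 0.579, adjusted p = 0.690 and 0.111), and Tmem119 with the neuronal gene Snap25 r = 0.118 (rho = -0.0571, adjusted p = 0.690 and 0.845).

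Chemokines and growth factors that draw and sustain myeloid cells had mostly positive changes in tumours with floxed Atrx and H3.3G34R, with 0 of them called by limma. Between both changes and neither, 12 of 16 tested of 18 listed were positive (median 1.53, against -0.01 over all genes), and 3 higher and 1 lower had an unadjusted p under 0.05, as 4.37% of all genes did. Cxcl2, a neutrophil attractant, stood at 71.9, 167, 26.7 and 112 in ATRXfl_G34R, 171, 127, 2.61 and 21.8 in ATRXfl_WT, 1173, 14.7 and 5.32 in p53_G34R and 6.51, 11.7, 8.55 and 22.8 in p53_WT. The 4 libraries with both changes lay above the 4 with neither (groups did not overlap for 2.94% of all genes), and p53_G34R replicate 1 was the highest of the 15. The log2 change was 2.7 (SE 0.65) (unadjusted p = 0.00252, limma adjusted p = 0.923). Ccl2, the ligand of Ccr2, stood at 1258, 2005, 508 and 2480.1 in ATRXfl_G34R, 3759.9, 667, 222 and 540.5 in ATRXfl_WT, 1251, 218 and 266 in p53_G34R and 70.5, 226, 372 and 669 in p53_WT, with 1 overlapping library, and differed by 2.41 (SE 0.72) without passing the test (unadjusted p = 0.00875, limma adjusted p = 0.996). For Cxcl1, a further neutrophil attractant, the value was 2.54 (SE 0.84) (unadjusted p = 0.0146, limma adjusted p = 0.999). For Atrx with H3.3G34R, 16 of 17 of these genes were positive (median 0.93), with 1 at an unadjusted p under 0.05, Ccl2 (3.39% of all genes). The list was also mostly positive for Atrx with H3.3WT (11 of 15, median 0.58) and for the histone with Atrx floxed (14 of 16, median 0.68), with 9 of 15 for the histone with Atrx intact (median 0.18), and these comparisons share groups. Markers of other cells had positive changes beside it. For Atrx with H3.3G34R, 3 of 3 erythroid markers were positive (median 3.58, all 3 at an unadjusted p under 0.05), as were 5 of 5 oligodendrocyte markers (median 1.93) and 7 of 7 neuron markers (median 1.43). For both changes against neither, the medians were 2.16 for erythroid (3 of 3 positive), 1.34 for B and plasma cell (3 of 3), 1.22 for T and NK cell (4 of 6) and 0.58 for hypoxia markers (5 of 5). Their part in the chemokine values was not tested.

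Of the other lists, limma called 0 genes in any comparison. Other monocyte and macrophage genes had 17 of 20 positive for both changes against neither (median 0.55), led by Thbs1, a matrix glycoprotein gene, at 2.43 (SE 0.58) (unadjusted p = 0.00240, limma adjusted p = 0.923), and Plac8, a monocyte gene, at 1.93 (SE 0.53) (unadjusted p = 0.00534, limma adjusted p = 0.996). Neither overlapped between these groups, with Thbs1 at 2219, 5859, 897 and 3301 against 248, 865, 534 and 397 and Plac8 at 148, 186, 169 and 288 against 28.2, 29.8, 129 and 55. Groups did not overlap for 2.94% of all genes there. Of 18 other neutrophil genes, 9 were tested, 7 of them positive (median 1.12), with Hdc, the histidine decarboxylase gene, at 2.15 (SE 0.61) (unadjusted p = 0.00657, limma adjusted p = 0.996) and the lectin gene Clec4d at 2.02 (SE 0.64) (unadjusted p = 0.0119, limma adjusted p = 0.999). Both lists were mostly positive in the other comparisons against the same p53_WT libraries. For the histone with Atrx intact, 19 of 20 monocyte and macrophage genes (median 0.41) and 8 of 9 neutrophil genes (median 0.96) were positive, and for Atrx with H3.3WT 16 of 20 (median 0.24) and 8 of 9 (median 0.78). The recruited and activated macrophage members did not share this, with 5 of 11 positive for both changes against neither (median -0.05). They had 6 of 11 positive for the histone with Atrx intact (0.27) and 9 of 11 for Atrx with H3.3WT (0.41). In the remaining pairs they had 5 of 11 for Atrx with H3.3G34R (-0.59) and 2 of 11 for the histone with Atrx floxed (-0.37).

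Hmox1, the haem oxygenase gene of the lysosomal and lipid activation list, stood at 10417, 9972, 16737 and 18921 in ATRXfl_G34R, 14800.2, 30959.6, 13354 and 12813 in ATRXfl_WT, 59739, 16250.1 and 9723 in p53_G34R and 1335, 8632, 4520.0 and 5921 in p53_WT. The 4 p53_WT libraries were the 4 lowest of 15. In the pairs of groups below, in order, groups did not overlap for 2.65%, 2.61% and 2.94% of all genes. The log2 change was 1.99 (SE 0.56) for floxed against intact Atrx with H3.3WT (unadjusted p = 0.00598, limma adjusted p = 0.975), 2.34 (SE 0.78) for the histone with Atrx intact (unadjusted p = 0.0173, limma adjusted p = 1) and 1.69 (SE 0.54) for both changes against neither (unadjusted p = 0.0120, limma adjusted p = 0.999), each against the same p53_WT libraries. The interaction was -2.65 (SE 0.87) (unadjusted p = 0.00865, limma adjusted p = 1). In the same list Abca1, a cholesterol exporter gene, differed by -0.91 (SE 0.30) between the histones with Atrx floxed (unadjusted p = 0.0123, limma adjusted p = 1). Among 20 other microglia genes, Irf8, a transcription factor of microglia and monocytes, had the smallest p, with 3979, 5129, 4121 and 4368 in ATRXfl_G34R against 3297, 1945 and 3028 in p53_G34R. Its groups did not overlap, as for 4.64% of all genes tested there. The Irf8 log2 change of 0.70 (SE 0.23) did not pass (unadjusted p = 0.0137, limma adjusted p = 1), and 15 of 20 genes of that list were positive (median 0.26).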

How the data were processed

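Per the labels' protocols, tumour RNA was isolated with a Qiagen kit and sequenced by TruSeq mRNA-Seq. STAR 2.7, HTSeq, DESeq2 and mm10 are named in the submitters' processing notes. For the annotation and the strand setting the sources used here give nothing. The authors deposited a table of 54232 genes for each of 5 pairs of groups. In its library columns the deposited signal is reads divided by a size factor of that library. Per the file headers, each table also holds a log2 fold change, its SE, a Wald score and the p-value, unadjusted and adjusted. In 35 of 38 columns the values were whole multiples of a single read within 0.01 (100% of values), which recovers the reads. In the other 3 columns a read is worth about 1.

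Ensembl IDs were matched to GENCODE vM21 (54079 IDs, 99.7%), and promoters come from RefSeq. Pairs of groups were fitted with limma 3.58.1 (trend, robust) in R 4.3.3 after adding a pseudocount of 1 and taking log2, keeping genes whose mean reached 10, with Benjamini-Hochberg adjustment and a threshold of 0.05. Log2 changes are on that scale, which understates those of low genes. The interaction and the contrasts over both levels used all 15 libraries, scaled by the median of ratios. Values of single libraries in the text have that scaling. The members and lists were chosen with earlier results of these data known, so agreement among them is no independent support. Described by rule are members past a threshold, the 3 members per role with the smallest p, all neutrophil members and up to 3 genes of each other list; others are stated to be chosen after their values were seen. Alternatives were no filter, pseudocounts of 0.5 and 5, DESeq2 1.42.0 and edgeR 4.0.16 on recovered reads, TMM scaling, libraries with 1 title code merged, log2 Xist as a covariate, 1 fit of all groups, leaving out the 2 libraries rich in cortex RNA, and leaving out each library. In simulated data for Atrx with H3.3G34R (17459 genes), the share of changed genes that limma called was 63.6% at 8-fold, 39.4% at 4-fold and 4.76% at 2-fold. For the histone with Atrx intact (17873 genes) it was 36.1%, 6.67% and 0%, and for Atrx with H3.3WT (17893 genes) 62.7%, 17.9% and 1.72%, so a change of 2-fold would usually be missed. The changed genes were drawn at random from the tested genes and varied independently of each other. These shares therefore do not measure how many changed members would be called.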

Additional observations from a re-analysis of the deposited data

Results flagged for a closer look

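Within a group of 4 libraries, 1 library stood far from the other 3 in 7 of 103 sets of values tested, where chance flags about 1 in 20. Of these 7, 3 were in ATRXfl_WT replicate 1, the library with the highest endothelial, mural and erythroid markers, whose part was not tested. It held 277 normalized counts of Mrc1 against 33.1 to 42.1 in the other 3 libraries, 28561 of Lyz2 against 2699.5 to 2945 and 283856 of Apoe against 56645 to 68574.

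In ATRXfl_WT replicate 3, Itgam stood at 88, far below the other 3. In p53_WT replicate 3, Adgre1, the F4/80 antigen gene, stood at 2179.6, far above the other 3. In ATRXfl_G34R replicate 2, S100a8 stood at 130.1 against 28.2 to 36.5. In p53_WT replicate 4, Ly6g stood at 6.23 against 0 in the other 3.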

How the results depend on the processing

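No paired analysis was possible because the labels give the libraries no replicate numbers that groups share. Under DESeq2 the members called numbered 1 in place of 0 for Atrx with H3.3G34R (Msr1), 1 for both changes against neither (Mrc1) and 1 for Atrx over both histones (Mrc1). Leaving out 1 library gave 0 to 1 members called for Atrx over both histones (1 without ATRXfl_WT replicate 1) and 0 in the other 7 comparisons. The other settings left each count of called members at 0. For Tmem119 with Ccr2, r was 0.699 as deviations from the group means (permutation adjusted p = 0.0146) and 0.266 to 0.638 with 1 library left out, passing without p53_WT replicate 3. The lowest, 0.266, was without p53_WT replicate 2, the highest library for both genes. The deviations from group means were not fitted again without that library. For Tmem119 with P2ry12, r was 0.729 without the 2 farthest libraries and 0.0980 to 0.809 with 1 left out, passing without p53_WT replicate 2. With 1 library left out, r ran from -0.209 to 0.446 for Tmem119 with Snap25, 0.242 to 0.581 for Ccr2 with Ly6c2 (0.632 without the 2 farthest), 0.166 to 0.507 for Gpnmb with Spp1, 0.0827 to 0.545 for Arg1 with Adm and 0.0109 to 0.405 for Apoe with Aldh1l1, and none of these passed. The cause was not tested.

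Of 5425 values of single members under other settings, 5378 stayed within the SE of the reported value, 43 moved further, 4 passed, and 4656 kept their sign. Over all genes, calls for Atrx with H3.3G34R were 4 by limma, 0 by edgeR and 111 by DESeq2, for Atrx with H3.3WT 6, 2 and 78, for both changes against neither 4, 2 and 75, and for Atrx over both histones 19, 13 and 101. DESeq2 called 33 and 14 genes between the histones with Atrx floxed and intact, 16 for the interaction and 7 over both Atrx states, where limma and edgeR called 0. With limma, calls for Atrx with H3.3G34R were 12 with no filter and 0 with title codes merged, with the Xist covariate or without the libraries rich in cortex RNA. Merging title codes or the Xist covariate left 2 for Atrx with H3.3WT and 2 for both changes against neither, where a pseudocount of 0.5 also left 2. With 1 library left out, calls ranged from 0 to 5, 2 to 8, 2 to 8 and 16 to 27 in the 4 comparisons with calls. Depth limits Ly6g, Ly6c2, S100a8, Cxcr2 and Siglech, the 5 members with libraries below 5 normalized counts.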

Other observations

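Over 14962 other protein-coding genes with a mean of at least 10, the genes whose log2 values were most like those of a member over the 15 libraries differed in kind between members. This is a description, chosen after the values were seen, with no test, and the genes share libraries and scaling. For C1qa the most like were C1qb (Pearson r = 0.995), C1qc (0.988), Tyrobp (0.976), the lymphocyte and macrophage surface gene Cd52 (0.967) and the lysosomal protease gene Ctsz (0.967), so other myeloid genes led. For S100a9 they were S100a8 (0.975), Cxcr2 (0.924), the haptoglobin gene Hp (0.910) and Retnlg (0.867), a gene of neutrophils. Mrc1 was most like Csf2ra, a chain of the GM-CSF receptor (0.888), and Stab2, a scavenger receptor of sinusoidal endothelium (0.886).

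Cd163 was most like Wasf3 (0.918), Garem2 (0.913) and Myo16 (0.910), and Sall1 most like Dgkk (0.900), the neuronal RNA-binding protein gene Elavl4 (0.818) and Ptchd4 (0.779). Apart from the members themselves, none of these 6 is in the myeloid lists used here. Tmem119 was most like Galm (0.895), and P2ry6, a purinergic receptor gene, came next (0.843). Siglech was most like Mlxipl (0.916) and Gabrb1 (0.873), with the microglia genes Selplg (0.850), Slc2a5 (0.844) and Crybb1 (0.844) among the next 4.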
